A study of Mus musculus with 2 samples.

Results

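The genes that open the cell cycle were measured as RNA in mouse embryonic stem (ES) cells, wild type (WT) or with the G34R change in histone H3.3. They are 10 genes, 3 D cyclins, 2 E cyclins, 3 of their kinases and 2 kinase inhibitors, picked out by symbol from 26127 probes in each library. All 10 were found, each as 1 probe. WT cells carry unmodified H3f3a and H3f3b, the pair of genes for the histone variant H3.3. G34R cells carry 1 copy of H3f3a whose product has arginine for glycine at residue 34, made from a minigene under the endogenous H3f3a promoter after Cre excision, beside a WT copy of H3f3a and both copies of H3f3b. Both lines are labelled 129S1/SvImJ, were below passage 20 and grew in serum with leukaemia inhibitory factor. Total RNA gave 1 library for each line. The values therefore have no replicates, no p-value is given, and genotype cannot be told apart from clone or culture.

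In most cells a D cyclin with Cdk4 or Cdk6, and then an E cyclin with Cdk2, phosphorylate the retinoblastoma protein and its relatives. This releases E2F transcription factors, which switch on genes of DNA replication. The Cip/Kip inhibitors, such as p27 from Cdkn1b, bind cyclin and kinase together, while INK4 inhibitors bind Cdk4 and Cdk6. Mouse ES cells are known for a short G1 phase, with abundant cyclin E, much Cdk2 activity and little of the inhibitors.

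Expression is given as RPKM, read numbers scaled for transcript length and for the size of the library, so that levels of different genes in a library can be set side by side. A change is given as log2 (G34R/WT RPKM) with 0.01 RPKM added to both values. A gene was called past 2-fold where its ratio was above 2 in either direction and it had at least 0.25 RPKM in 1 or both libraries, a level that all 10 members reached. The depth, estimated from the RPKM steps of short genes, was about 88100000 reads in WT cells and 72300000 reads in G34R cells. At that depth the fewest reads behind a member were about 225 in WT and 120 in G34R cells, both for Cdkn2a. The standard error of a log2 ratio from counting alone was between 0.016 and 0.16 over the members, and it covers neither culture nor library.

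The targeted gene H3f3a had 8.17 RPKM in WT and 4.89 RPKM in G34R cells, which does not separate its alleles. The defining markers of ES cells were present in both libraries. All 10 had over 25 RPKM, led by Dppa5a with 707.95 RPKM in WT and 647.81 RPKM in G34R cells, and 9 of them lay within 2-fold. The exception, singled out after its values were seen, was Nanog with 127.07 and 52.24 RPKM. Of 10 fibroblast markers Postn, Dcn and Lum were at 0 in both libraries, 3 passed 0.25 RPKM, Twist1 (0.96 and 1.29 RPKM), Thy1 (1.18 and 0.71 RPKM) and Acta2 (0.74 and 0.03 RPKM), and the list summed to 3.19 RPKM in WT and 2.28 RPKM in G34R cells. All 8 endoderm markers that passed 0.25 RPKM were higher in G34R cells, where 44.5% of all probes that passed were higher. The filter shaped this count, as Sox17 (0.18 and 0.56 RPKM) passed only through G34R cells. Ttr (0.02 and 0.0 RPKM), lower in G34R cells, did not pass. The whole list of 10 summed to 20.79 and 33.34 RPKM, mostly Lama1 (11.56 and 20.26 RPKM), with Afp at 0 in both. Mesoderm markers summed to 0.90 and 2.74 RPKM, led by Eomes (0.43 and 1.88 RPKM). Neuroectoderm markers summed to 37.26 and 27.70 RPKM, led by Tubb3 (35.58 and 8.36 RPKM) and, in G34R cells, Olig2 (0.03 and 17.71 RPKM, singled out after its values were seen), with Neurog2 at 0 in both, and trophoblast markers to 17.84 and 10.19 RPKM, led by Krt18 (8.94 and 5.22 RPKM). The part of these in the values below was not tested, and in bulk RNA fewer cells of a type and less RNA per cell cannot be told apart.

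Of the 10 members, 1 was past 2-fold up and 1 past 2-fold down in G34R cells, and both were D cyclins. Ccnd3 was higher, Ccnd2 was lower, and the other 8 lay within 2-fold, 7 of them within 1.5-fold. Of all 13366 probes that passed the same filter, 5.66% were past 2-fold up and 9.44% past 2-fold down, so the share of members called in either direction was near that of genes at large. The median log2 ratio was -0.097 over the members and -0.066 over all probes.

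**Figure D1:**
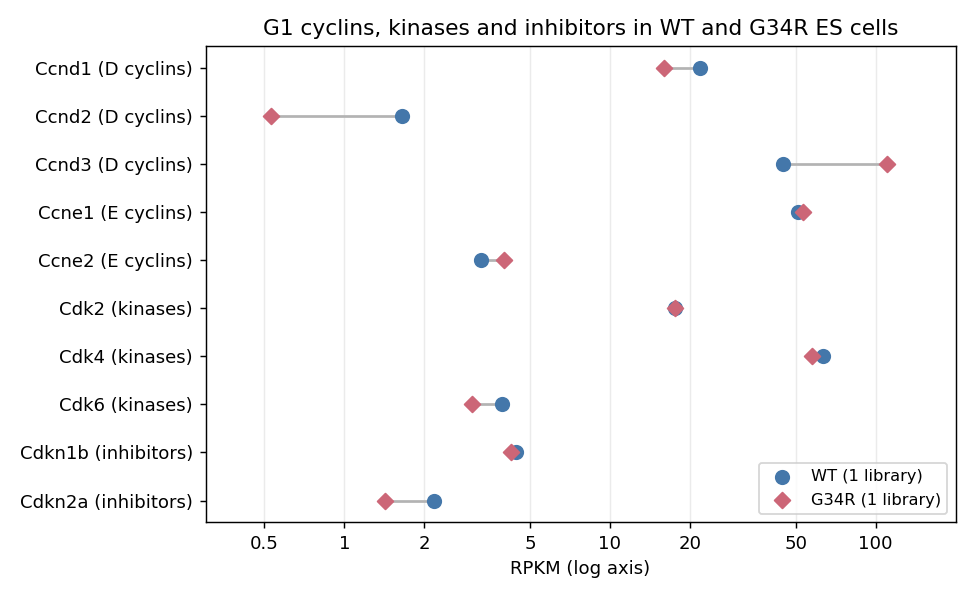
Level of each member in WT cells (circles) and G34R cells (diamonds) in RPKM on a log axis, 1 library each, with a line joining the pair. Ccnd3 lies to the right in G34R cells, at 110.72 against 44.86 RPKM, Ccnd2 to the left, at 0.53 against 1.65 RPKM, and the pairs of Cdk2 and Cdkn1b nearly coincide.

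The D cyclins are the mitogen-responsive partners of Cdk4 and Cdk6. Ccnd3, which encodes cyclin D3, had 44.86 RPKM in WT and 110.72 RPKM in G34R cells, from about 8912 and 18051 estimated reads. The log2 ratio was 1.30 (counting SE 0.019), a level 2.47-fold that of WT cells. By level it was probe 601 of 26127 in WT cells and probe 182 in G34R cells. Ratios as high or higher were found for 3.55% of all probes that passed, and for 1.82% of the 3467 probes with at least 10 RPKM, a group to which Ccnd3 belongs and in which 3.37% were past 2-fold up and 3.84% past 2-fold down.

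Ccnd3 (ENSMUSG00000034165) lies on the plus strand of chromosome 17 of mm9 from 47642000 to 47736632, with 2255 bp of merged exons. RefSeq gives 2 starts for it, 88416 bp apart. The reads of its 2 transcripts in the GENCODE annotation are merged in 1 value, so the start from which the additional RNA came cannot be read from the files. The bases before each start are printed so that both candidate start regions of this RNA are in view. They are from RefSeq (GRCm38.p6), 250 bases each, 5′ to 3′ on the plus strand, and each was found once in mm9, at chr17:47641750-47641999 for the far start and chr17:47730166-47730415 for the near one.

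Ccnd3, far start: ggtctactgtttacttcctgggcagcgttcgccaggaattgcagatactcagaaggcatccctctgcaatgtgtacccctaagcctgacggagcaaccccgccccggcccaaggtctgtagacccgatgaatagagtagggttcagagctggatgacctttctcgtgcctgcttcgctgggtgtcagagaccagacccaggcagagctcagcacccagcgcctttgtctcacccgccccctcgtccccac

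Ccnd3, near start: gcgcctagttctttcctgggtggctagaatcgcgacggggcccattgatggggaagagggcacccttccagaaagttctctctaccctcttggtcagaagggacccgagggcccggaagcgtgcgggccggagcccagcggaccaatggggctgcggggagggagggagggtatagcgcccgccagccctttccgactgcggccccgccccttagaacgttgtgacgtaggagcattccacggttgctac

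The near window held 64.8% G and C and the far one 59.6%. Neither held an E2F word (TTTCCCGC, TTTGGCGC, TTTCGCGC or TTTGCCGC, forms of the site bound by E2F proteins) or an E-box (CACGTG, the word bound by Myc proteins, which reads alike on both strands), with both strands searched and none of the words holding another. Among 32851 such windows of all genes, 1.86% held an E2F word and 6.02% an E-box.

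The genes around Ccnd3 lay on both sides of 0. Of 16 others with at least 1 RPKM and a midpoint within 0.5 Mb, none was past 2-fold up and 3 were past 2-fold down, with a median log2 ratio of -0.11. The 3 were Tcfeb, Pgc and Gm14873, named after their values were seen, at log2 ratios of -1.01, -1.16 and -1.10. The highest of the 16 was Foxp4, at 0.95. The last 353 bp of Ccnd3 overlap Bysl on the opposite strand, and Bysl was lower in G34R cells (13.01 and 8.97 RPKM). The reads were counted by strand.

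Ccnd2, which encodes cyclin D2, was the lowest of the 10 members in both libraries. It had 1.65 RPKM in WT and 0.53 RPKM in G34R cells, from about 829 and 218 estimated reads. The log2 ratio was -1.62 (counting SE 0.11), a level 3.07-fold lower, and 5.13% of all probes that passed had a ratio as low or lower. With 1 RPKM added to both values the log2 ratio was -0.79, which is no longer past 2-fold. Ccnd2 (ENSMUSG00000000184) lies on the minus strand of chromosome 6 from 127075797 to 127101066. Of 4 genes with at least 1 RPKM within 0.5 Mb none was past 2-fold, and they ranged from -0.54 to 0.27.

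Ccnd1, which encodes cyclin D1, had 21.80 RPKM in WT and 15.97 RPKM in G34R cells. The log2 ratio of -0.45 (counting SE 0.027) is well outside counting error, but 23.4% of all probes that passed had a ratio as low or lower. Ccnd1 (ENSMUSG00000070348) lies on the minus strand of chromosome 7 from 152115836 to 152125774, near the fibroblast growth factor genes Fgf4 and Fgf15. It shares 818 bp with Oraov1 on the opposite strand, and Oraov1 was at 1.02 and 0.69 RPKM. Fgf15 was at 3.70 and 0.22 RPKM, while Fgf4, a growth factor made by ES cells, was at 39.21 and 50.97 RPKM. Of 6 neighbours with at least 1 RPKM, 1 was past 2-fold down, with a median of 0.28. The neighbours of Ccnd1 thus lay on both sides of 0.

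**Figure D2:**
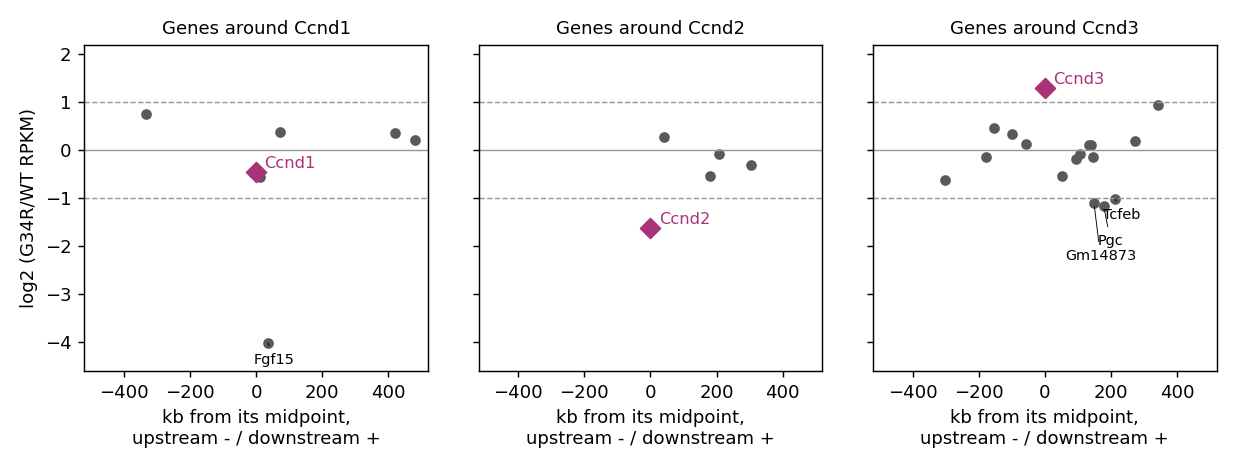
log2 (G34R/WT RPKM) of each D cyclin (diamond) and of genes with at least 1 RPKM within 0.5 Mb of its midpoint (dots), against distance in kb along its own strand. Dashed lines mark 2-fold. Ccnd3 stands above all 16 of its neighbours and Ccnd2 below all 4, while Fgf15 is the gene far below Ccnd1.

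Put together, the 3 D cyclins summed to 68.31 RPKM in WT and 127.22 RPKM in G34R cells, 1.86-fold as much. Ccnd3 made up 65.7% of the sum in WT cells and 87.0% in G34R cells. The share of Ccnd1 was 31.9% and 12.6%, and that of Ccnd2 was 2.42% and 0.42%. Without Ccnd3 the sum was smaller in G34R cells, at 16.50 RPKM against 23.45 RPKM. The ratio of Ccnd3 to Ccnd1 was 2.06 in WT cells and 6.93 in G34R cells. Cyclin D3 RNA was therefore the main D cyclin RNA in both lines, and more so in G34R cells.

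**Figure D3:**
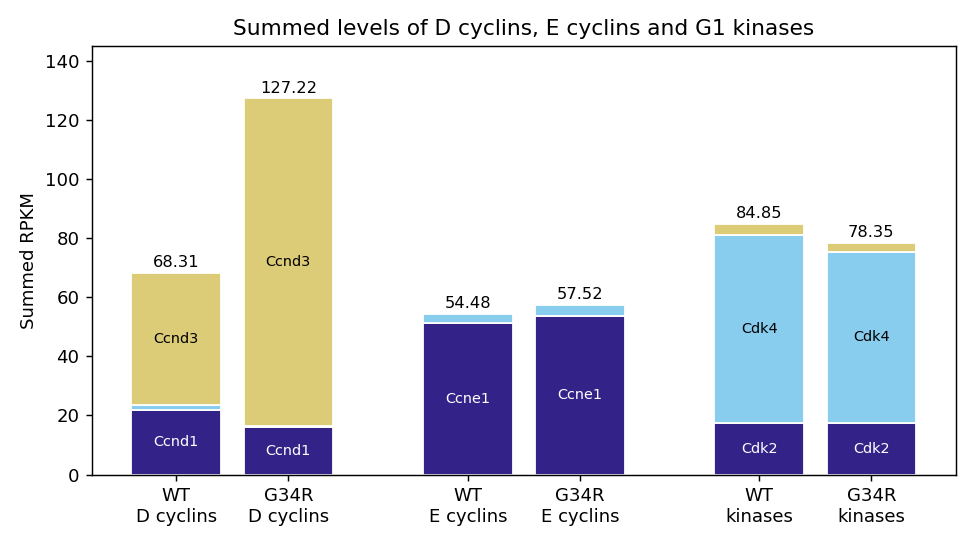
Stacked RPKM of the D cyclins, E cyclins and G1 kinases in WT and G34R cells, 1 library each, with the sum above each bar and, without a name, Ccnd2, Ccne2 and Cdk6 as the thin parts. The D cyclin bar is 127.22 RPKM in G34R cells and 68.31 in WT cells, while the other pairs of bars are of similar height.

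The E cyclins, which activate Cdk2 at the entry to S phase, differed little. Ccne1 had 51.21 RPKM in WT and 53.52 RPKM in G34R cells, for a log2 ratio of 0.064 (counting SE 0.019). Ccne2 had 3.27 and 4.0 RPKM, a log2 ratio of 0.29 (counting SE 0.064), and 24.3% of all probes that passed had a ratio as high or higher. Cyclin E RNA in these cells was nearly all Ccne1, at 94.0% of the sum of 54.48 RPKM in WT cells and 93.1% of 57.52 RPKM in G34R cells. Ccne1 lies on the minus strand of chromosome 7 (38883003 to 38892553), far from Ccnd1, and Ccne2 on the plus strand of chromosome 4 (11118498 to 11131926). Within 0.5 Mb of Ccne1, 1 of 4 genes was past 2-fold up, Pop4 with 8.08 and 18.89 RPKM, named after its values were seen. Within 0.5 Mb of Ccne2, 1 of 9 genes was past 2-fold down. Ccne2 shares 5622 bp with Ints8 on the opposite strand, and Ints8 was at 5.38 and 5.46 RPKM.

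Of the kinases, Cdk2 and Cdk4 had nearly the same levels in both libraries, and Cdk6 was somewhat lower in G34R cells. Cdk2, the partner of E and A cyclins, had 17.60 RPKM in each, a log2 ratio of 0.00. Cdk4 had 63.33 and 57.72 RPKM, a log2 ratio of -0.13 (counting SE 0.016), and was the highest member in WT cells and the second in G34R cells, where Ccnd3 stood above it. Cdk6 had 3.92 and 3.03 RPKM, a log2 ratio of -0.37 (counting SE 0.065), and 27.4% of all probes that passed had a ratio as low or lower. All 7 genes around it were lower too, between -0.75 and -0.072. Of all probes that passed 0.25 RPKM, 44.5% were above 0, and their median was -0.066. Cdk4 RNA was 16.2 times that of Cdk6 in WT cells and 19.0 times in G34R cells, so Cdk4 supplied nearly all the RNA of the kinases that pair with D cyclins. Cdk2 (minus strand, 128134995 to 128142107) and Cdk4 (plus strand, 126500590 to 126504976) both lie on chromosome 10, and Cdk6 on the plus strand of chromosome 5 (3343893 to 3523218). Of the 32 genes around Cdk2, 1 was past 2-fold up and 1 down, and of the 22 around Cdk4, 2 were down. The sum of the 3 kinases was 84.85 RPKM in WT and 78.35 RPKM in G34R cells. Set against the kinase, Ccnd3 RNA was 0.708 of the level of Cdk4 in WT cells and 1.92 of it in G34R cells.

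Cdk4 is a known target of Myc, and its promoter is printed because it held 4 E-boxes, in capitals below, a number reached by 0.021% of the windows of all genes. The 250 bases are from RefSeq (GRCm38.p6), on the plus strand, and lie at chr10:126500341-126500590 in mm9. The letters are a description of this window, and binding was not measured here. Among the other members, the window of Cdk6 held 1 E-box and that of Cdk2 held 1 E2F word, while those of Ccne1 and Cdkn1b held neither. Ccnd1, Ccnd2 and Ccne2 had no window and were not searched.

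Cdk4: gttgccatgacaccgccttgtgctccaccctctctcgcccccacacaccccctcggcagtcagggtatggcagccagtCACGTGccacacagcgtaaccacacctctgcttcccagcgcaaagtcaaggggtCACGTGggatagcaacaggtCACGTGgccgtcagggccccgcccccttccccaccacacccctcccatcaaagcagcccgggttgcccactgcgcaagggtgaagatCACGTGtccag

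Mycn, the highest Myc gene in these cells, had 30.37 RPKM in WT and 23.29 RPKM in G34R cells. Of the 4 genes of the Myc list, which includes the partner Max, none was past 2-fold, and the median log2 ratio was -0.37. They did not move together, with 3 below 0 and 1 above. The 1 above was Myc itself, at 4.76 RPKM in WT and 7.49 RPKM in G34R cells (log2 ratio 0.65).

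The inhibitors were low in both libraries. Cdkn1b, which encodes p27, had 4.41 RPKM in WT and 4.23 RPKM in G34R cells, for a log2 ratio of -0.060 (counting SE 0.052), close in size to its counting error. It lies on the plus strand of chromosome 6 from 134870419 to 134875531, and 1 of 10 genes around it was past 2-fold down. Cdkn2a had 2.18 and 1.42 RPKM, from about 225 and 120 estimated reads. Its log2 ratio of -0.61 (counting SE 0.16) corresponds to a level 1.53-fold lower, and 16.9% of all probes that passed had a ratio as low or lower. Cdkn2a was the member with the fewest reads, and so the least precise.

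The Cdkn2a gene (ENSMUSG00000044303, minus strand of chromosome 4 from 88920377 to 88940557) makes 2 unrelated proteins from 2 starts. p16Ink4a binds Cdk4 and Cdk6, while p19Arf acts through Mdm2 on p53. They share their last exons, and the deposited value merges them, so the RPKM says nothing of which product was there. The windows before both starts are printed for that reason, from RefSeq (GRCm38.p6) on the minus strand, 5′ to 3′. They lie at chr4:88940524-88940773 and chr4:88928097-88928346 in mm9. The window before the far start, that of p19Arf, held 1 E2F word, in capitals, and the window before the near start, that of p16Ink4a, held none.

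Cdkn2a, p19Arf start: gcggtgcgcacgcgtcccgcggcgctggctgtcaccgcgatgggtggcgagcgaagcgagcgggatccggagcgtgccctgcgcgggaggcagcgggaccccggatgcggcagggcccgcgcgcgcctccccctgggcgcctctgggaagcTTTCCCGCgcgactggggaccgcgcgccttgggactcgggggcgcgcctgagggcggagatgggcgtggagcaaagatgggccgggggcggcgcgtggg

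Cdkn2a, p16Ink4a start: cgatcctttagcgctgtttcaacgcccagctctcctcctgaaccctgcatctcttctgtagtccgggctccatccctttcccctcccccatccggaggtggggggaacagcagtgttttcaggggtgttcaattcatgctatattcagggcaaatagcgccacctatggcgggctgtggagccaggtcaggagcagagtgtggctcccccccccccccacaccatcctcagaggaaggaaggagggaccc

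The neighbour Cdkn2b, which encodes the INK4 inhibitor p15, was also lower, at 1.32 and 0.68 RPKM (log2 ratio -0.95). Mtap, on the other side of Cdkn2a, was at 12.21 and 13.47 RPKM. Of the other CDK inhibitors 0 of 5 were past 2-fold in either direction, with a median of 0.16. The highest was Cdkn1a, which encodes p21 and is a target of p53, at 7.75 and 9.20 RPKM. Cdkn1c, the imprinted inhibitor p57, was at 3.40 and 3.79 RPKM. Over all 7 inhibitors the sum was 22.60 RPKM in WT and 22.53 RPKM in G34R cells. Within that sum the Cip/Kip inhibitors were at 15.56 and 17.22 RPKM, and Cdkn2a with the INK4 genes at 7.04 and 5.31 RPKM. The INK4 genes did not all move alike. Cdkn2d, the largest part, was at 3.31 and 2.83 RPKM (log2 ratio -0.23). Cdkn2c was higher in G34R cells, at 0.23 and 0.38 RPKM (log2 ratio 0.70), both low levels.

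In order of level, WT cells had Cdk4, Ccne1, Ccnd3, Ccnd1, Cdk2, Cdkn1b, Cdk6, Ccne2, Cdkn2a and Ccnd2. In G34R cells Ccnd3 moved to the head of the order, Cdk2 passed Ccnd1 and Ccne2 passed Cdk6, and the rest kept their order. The last 2 exchanges are between genes of similar level (17.60 and 15.97 RPKM, 4.0 and 3.03 RPKM). Without replicates it is unknown whether any of these moves, that of Ccnd3 included, would recur.

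The wider cell cycle programme was read from 11 lists with 123 measured genes, of which 121 passed 0.25 RPKM. Of these, 0 were past 2-fold up and 1 was past 2-fold down, beside 5.66% and 9.44% of all probes. Large ratios are rarer among well expressed probes. Of the 62 pathway genes with at least 10 RPKM, 0 were up and 1 was down, beside 3.37% and 3.84% of all probes at that level. Over the 121 genes the median log2 ratio was -0.031, with 55 genes above 0 and 66 below, where 44.5% of all probes that passed were above 0. The gene past 2-fold was Birc5, which encodes the mitotic protein survivin, at 17.06 RPKM in WT and 6.81 RPKM in G34R cells (log2 ratio -1.32). The other 12 mitotic genes lay within 2-fold, led by Top2a with 77.01 and 70.79 RPKM.

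**Figure D4:**
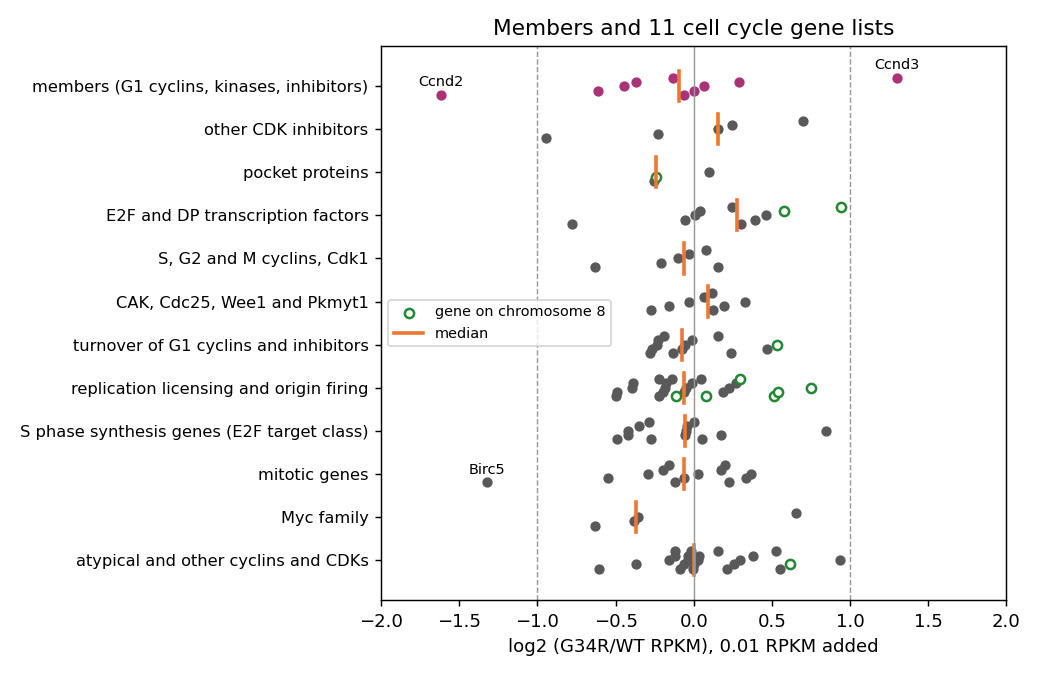
log2 (G34R/WT RPKM) of the 10 members and of the 121 genes of 11 cell cycle lists that passed 0.25 RPKM, 1 dot per gene, with the median of each list as a bar and dashed lines at 2-fold. Ccnd3, Ccnd2 and Birc5 are the genes past 2-fold, and open circles, genes on chromosome 8, lie mostly to the right.

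The targets of cyclin and kinase activity are the pocket proteins, which hold E2F in check. Rb1, Rbl1 and Rbl2 were all within 2-fold, with Rbl1 the highest at 2.87 and 3.07 RPKM. Of the 10 E2F and DP genes, 8 were above 0 and 2 below, where 44.5% of all probes that passed were above 0. None was past 2-fold, and the median log2 ratio was 0.28. The lowest ratio was that of Tfdp2, at 8.29 and 4.83 RPKM (log2 ratio -0.78). The highest was E2f4, a repressor E2F, with 31.39 RPKM in WT and 60.39 RPKM in G34R cells (log2 ratio 0.94). E2f4 and Tfdp1 (19.79 and 29.55 RPKM) lie on chromosome 8, and without them the median was 0.15. Over all lists the 11 genes on that chromosome had a median of 0.53 and the other 110 one of -0.044, while none of the 10 members lies on it. The median of all probes on chromosome 8 was not taken, so these values do not show a shift particular to cell cycle genes. The part of chromosome 8 in the values of E2f4 and Tfdp1 was not tested.

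None of the genes on the lists of replication licensing and S phase synthesis, a class that E2F switches on, was past 2-fold. The 23 genes of replication licensing and origin firing had a median of -0.060, and of -0.18 without the 6 on chromosome 8. The median over all probes, with chromosome 8 included, was -0.066. The list was led by Mcm5, a subunit of the replicative helicase whose gene is among those 6, at 103.95 and 109.98 RPKM. The 13 genes of S phase synthesis had a median of -0.056. Rrm2, the small subunit of ribonucleotide reductase, had the highest mean of both libraries among them, at 48.72 RPKM in WT and 87.54 RPKM in G34R cells (log2 ratio 0.85). Among the cyclins of S phase and mitosis with Cdk1, 6 of 7 passed, with a median of -0.064 and Ccnb2 at 53.05 and 55.96 RPKM.

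The remaining lists bear on how the members are switched on and broken down, and none of their genes was past 2-fold. The Cdk-activating kinase, the Cdc25 phosphatases and the inhibitory kinases, 8 genes, had a median of 0.091, with Cdc25a at 16.13 and 16.87 RPKM. The 13 genes for turnover of G1 cyclins and inhibitors had a median of -0.072, with Cdc20, an activator of the anaphase-promoting complex, at 95.56 and 132.16 RPKM. Of 24 other cyclins and kinases 23 passed, with a median of 0.0021 and Ccng1, a p53 target, at 42.41 and 32.77 RPKM.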

How the data were processed

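RNA-seq of WT and G34R ES cells, 1 library each, was used as deposited. The authors aligned stranded 50 bp single-end reads to mm9 with STAR 2.4.2a, quantified primary alignments in Seqmonk with isoforms merged and transcript length corrected, and deposited RPKM to 2 decimals. RPKM depends on each library's total and on the annotated length, and sequencing depth is not in the files. It was estimated as the total that brings RPKM of single-exon genes of 200 to 800 bp with up to 6 reads nearest to whole reads. Exon lengths and gene IDs came from GENCODE M1 (mm9). Estimated reads and errors rest on this depth. The groups came from the labels, and no test was made.

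Ratios used 0.01 RPKM added to both values, calls more than 2-fold and at least 0.25 RPKM. All members are named. Of each list the gene of highest mean RPKM and genes past 2-fold with at least 1 RPKM are named, of the marker lists the highest and those at 0. Other names were chosen after values were seen, as was the group of at least 10 RPKM. Members and lists were chosen with earlier results of these data known. The markers Sox1 and Tfap2c were not analysed here. Motifs were counted in RefSeq promoter windows (7 of 10 members matched). Depth recovery and calls were tested on simulated data with counting noise only and the same exon lengths. That cannot show errors from those lengths, or how calls would hold between cultures or libraries. Python 3.11.15, NumPy 2.4.6, pandas 2.3.3 and matplotlib 3.10.9 were used.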

Additional observations from a re-analysis of the deposited data

How the results depend on the processing

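The alternatives were other pseudocounts, filters, scalings and fold thresholds. Ccnd3 was past 2-fold up under every pseudocount and scaling tried, with log2 ratios from 1.28 to 1.37, and with a threshold of 3-fold 0 members were up. Ccnd2 was past 2-fold down except with 1 RPKM added, which left 0 members down, and its log2 ratios ran from -1.64 to -0.79. A filter of at least 5 RPKM, or of at least 10 RPKM, which was added after seeing the data, also left 0 down, because Ccnd2 is then not counted, and moved the median of the 5 members left to 0.00. With a threshold of 1.5-fold 2 members were down, Ccnd2 and Cdkn2a. Among the pathway genes, 2 were up after centring on the median of all genes, 7 were up and 6 down with 1.5-fold, and 0 were down with 3-fold. Of 50 alternative values of single members 3 had another sign than the value reported, 2 for Cdk2 and 1 for Cdkn1b, whose log2 ratios were 0.00 and -0.060. Scaling to the same RPKM sum moved log2 ratios by about 0.046, and the median over the pathway genes was then 0.015, and 0.035 after centring. No paired analysis was possible because there is 1 library per cell line, and no replicate could be left out.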
